A study of Rattus norvegicus with 4 samples.

Results

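Otx2, Crx, Nrl, Nr2e3, Rorb, Neurod1, Neurod4 and Prdm1 are transcription factors of the photoreceptor lineage, and they were followed here in neurospheres grown from rat retina. A member was any probe set whose platform annotation gave exactly 1 gene symbol that was among these 8, and 7 of the 31099 probe sets on the array met this rule. They represent 5 genes: Otx2 and Rorb by 2 probe sets each, and Crx, Neurod1 and Prdm1 by 1 each. Nrl, Nr2e3 and Neurod4 had no probe set of a single symbol in the annotation and were not analysed here.

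Neurospheres are floating clusters of proliferating cells. Retinal cells of Sprague Dawley rats at embryonic day 18, pooled from 10 embryos per the series text, were grown with epidermal growth factor (EGF) alone (2 arrays) or with EGF plus medium conditioned by endothelial cells, the lining cells of blood vessels (2 arrays). Both groups received EGF, so the comparison is of conditioned medium against its absence. Total RNA of each culture was hybridized to an Affymetrix rat array that reads transcripts near their 3' ends, and each culture is a pool with no single animal behind it.

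In the developing retina, Otx2 commits dividing or newly born cells to the photoreceptor and bipolar lineages and switches on Crx, a close relative that then drives the genes of phototransduction and of the outer segment. Prdm1 (also called Blimp1) holds young Otx2-positive cells on the photoreceptor path by repressing bipolar genes, Rorb acts early and is needed for rod formation, and Neurod1 supports photoreceptor differentiation and survival. Nrl and Nr2e3 then set rod against cone identity, and Neurod4 acts mainly in bipolar and amacrine precursors.

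The promoters of the measured genes are shown because Crx and Prdm1 fell together and because several of these factors bind near gene starts. RefSeq's promoter table (build GRCr8) matched 7 of the 8 genes, all but Otx2. Each window is the 250 bases before the annotated start, 5′ to 3′ on the gene's own strand, which is the minus strand for all 5 genes shown. Capitals mark TAATCC, the core that Crx and Otx2 bind, or its reverse complement GGATTA. The windows are chr1:85681853-85682102 for Crx, chr20:49564089-49564338 for Prdm1, chr3:84770455-84770704 for Neurod1, chr1:225970974-225971223 for Rorb and, as a Crx-regulated gene that fell, chr4:58945826-58946075 for the short-wave cone opsin Opn1sw.
Crx: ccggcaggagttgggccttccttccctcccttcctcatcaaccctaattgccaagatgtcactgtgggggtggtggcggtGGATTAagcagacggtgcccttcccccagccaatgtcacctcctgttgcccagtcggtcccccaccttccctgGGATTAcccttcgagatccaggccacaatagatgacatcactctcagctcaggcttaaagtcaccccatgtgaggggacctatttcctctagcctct
Prdm1: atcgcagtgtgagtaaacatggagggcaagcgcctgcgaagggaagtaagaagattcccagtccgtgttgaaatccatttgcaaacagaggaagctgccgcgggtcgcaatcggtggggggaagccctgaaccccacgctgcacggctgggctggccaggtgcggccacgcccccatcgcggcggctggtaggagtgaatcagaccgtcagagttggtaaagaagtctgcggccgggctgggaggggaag
Neurod1: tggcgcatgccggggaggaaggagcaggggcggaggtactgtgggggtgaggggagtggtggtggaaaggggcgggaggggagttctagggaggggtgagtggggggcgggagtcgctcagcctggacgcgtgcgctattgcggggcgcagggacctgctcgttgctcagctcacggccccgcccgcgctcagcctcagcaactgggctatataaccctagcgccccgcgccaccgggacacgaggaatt
Rorb: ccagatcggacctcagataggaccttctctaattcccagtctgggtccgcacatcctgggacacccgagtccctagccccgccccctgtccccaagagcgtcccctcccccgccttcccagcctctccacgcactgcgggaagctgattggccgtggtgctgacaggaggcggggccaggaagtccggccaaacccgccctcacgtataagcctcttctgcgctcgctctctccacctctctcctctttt
Opn1sw: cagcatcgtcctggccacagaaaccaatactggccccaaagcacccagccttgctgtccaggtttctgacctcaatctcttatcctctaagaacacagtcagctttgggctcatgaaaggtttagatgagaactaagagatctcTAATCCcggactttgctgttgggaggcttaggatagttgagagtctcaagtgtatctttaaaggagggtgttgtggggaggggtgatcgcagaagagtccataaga

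The Crx promoter held the core at 2 places, both as GGATTA, with first bases 170 and 97 bases upstream of the start. The Opn1sw promoter held it once, as TAATCC, 106 bases upstream. The windows of Pdc, Cdhr1 and Rxrg, genes described further on that also fell, did not hold it on either strand. Crx was the 1 member of the 7 matched with this core, and 6.34% of all 33469 promoters of the same length held it on either strand. Of the genes of the photoreceptor list described further on, 5 of 13 matched promoters held it among those that fell and 7 of 22 among those that did not. Other cores searched on both strands, with any overlap allowed, were CAGATG for Neurod1 (in the Nrl window, and in 13.96% of all promoters), TGCTGA for Nrl (in the Rorb, Neurod1 and Neurod4 windows, and in 15.1%), AGGTCA for Rorb (in 0 of the 7, and in 14.1%) and GAAAGT for Prdm1 (in 0 of the 7, and in 12.6%). These matches describe letters in the window and were not tested as binding sites.

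The deposited values were not equalised between arrays. The array medians were 6.03 and 6.25 log2 on the EGF arrays against 6.84 and 6.56 log2 on the conditioned-medium arrays, and the median probe set differed by 0.48 log2 as deposited, -0.01 log2 after quantile normalization (every array given the same distribution) and -0.09 log2 after median centring. Differences are therefore given on the quantile normalized scale, tested with limma and adjusted over 31042 probe sets, and a probe set is said to have risen or fallen only where the adjusted p was under 0.05 in the same direction under all 3 scalings. By that rule 0.986% of all probe sets fell and 4.92% rose, against 8.17% lower and 8.2% higher after quantile normalization alone. The rule is stricter for falls than for rises, as 307 probe sets were lower and 9688 higher as deposited. Of these 307, 306 passed under all 3 scalings, so the deposited scale decided nearly every fall. RNA degradation lowers 5' control signals against 3' ones. For actin this gap was 1.99 and 2.08 log2 on the EGF arrays against 1.54 and 1.37 log2 on the conditioned-medium arrays. For Gapdh it was smaller, 0.31 and 0.30 log2 against 0.19 and 0.18 log2. Both gaps moved with the condition in every comparison below, and their part in the results was not tested. The tissue label was checked by the retinal factor Pax6, at 12.66 ± 0.13 and 12.80 ± 0.20 log2 as deposited (SD, n = 2 per group).

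The comparison asks what endothelial conditioned medium does to the photoreceptor factors in cultures that already receive EGF. Crx fell 2.17-fold (-1.12 ± 0.10 log2, SE, n = 2 per group) and Prdm1 fell 1.63-fold (-0.71 ± 0.09 log2). In these bulk RNA samples fewer cells of a type and less RNA per cell cannot be told apart. Neurod1 and the brighter Otx2 probe set were lower by smaller amounts after quantile normalization and median centring but not as deposited, and neither Rorb probe set was lower by the test under any scaling. Of the 7 probe sets 2 fell and 0 rose under all 3 scalings, against 0.986% and 4.92% of all probe sets. After quantile normalization alone 4 of the 7 were lower and 0 higher, against 8.17% and 8.2% of all probe sets. As deposited 2 were lower and 2, both of Rorb, were higher, against 0.989% and 31.2%, and with median-centred arrays 4 were lower and 0 higher, against 16.8% and 6.26%. When a single array was dropped and no filter applied, limma made no call after quantile normalization. With 1 array left in a group, only the size of a difference is read. It lay between -1.17 and -1.06 log2 for Crx and between -0.81 and -0.61 log2 for Prdm1.

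**Figure D1:**
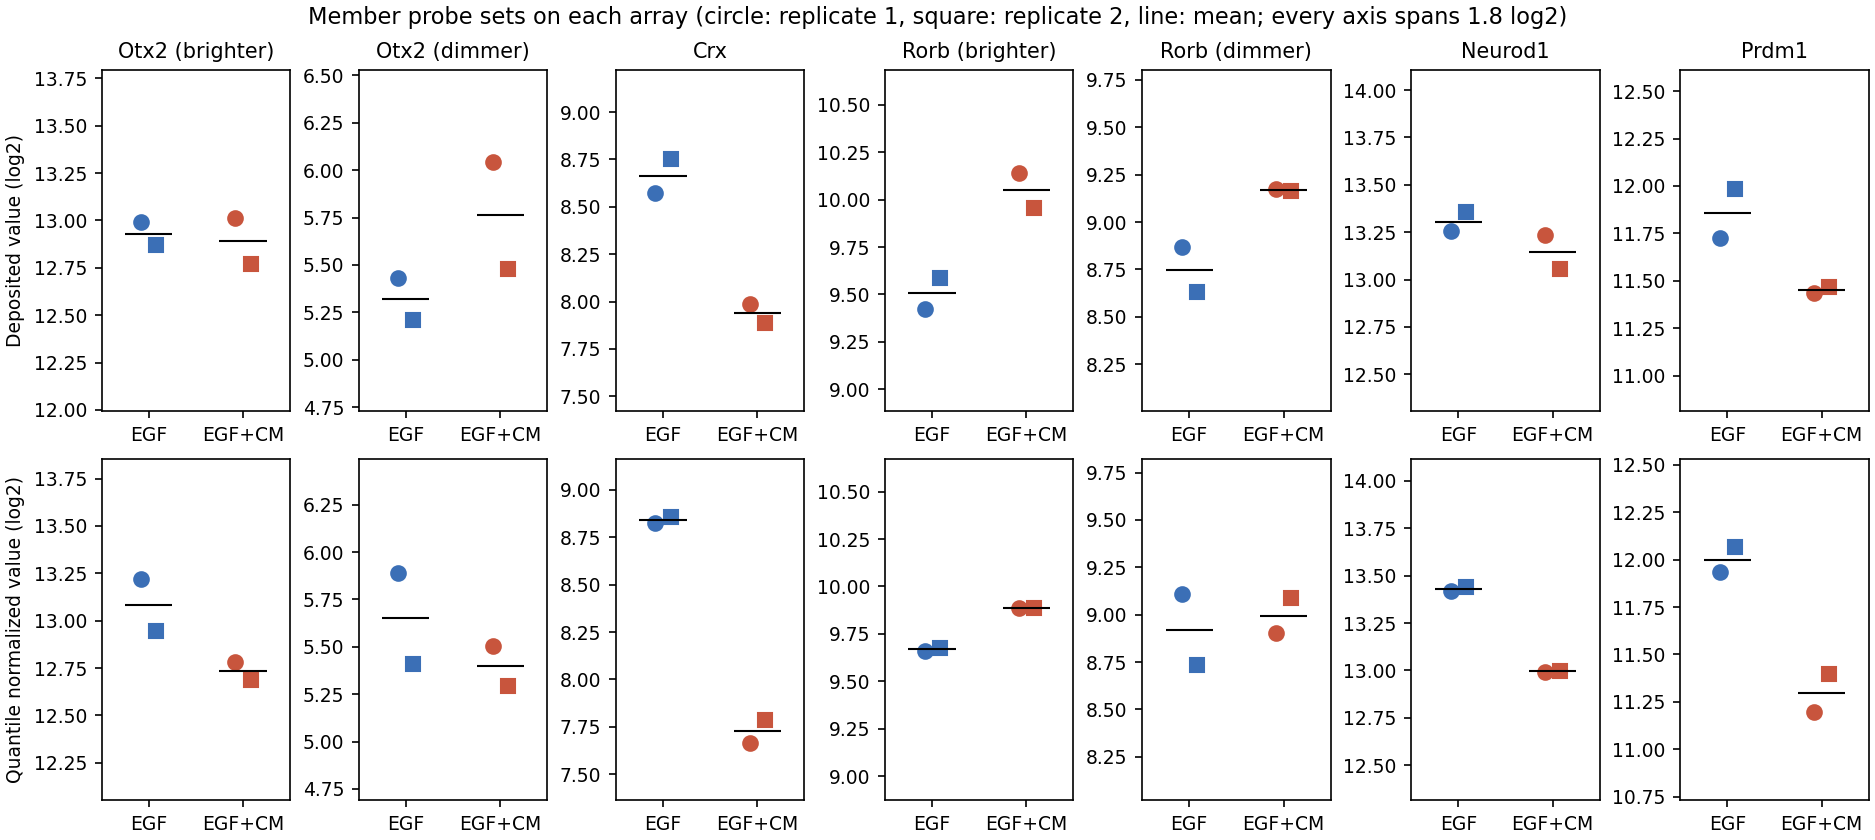
Values of the 7 member probe sets on each of the 4 arrays in log2, as deposited (top) and after quantile normalization (bottom), with EGF alone in blue and EGF plus conditioned medium (CM) in red; circles are replicate 1, squares replicate 2 and lines the group means. Crx and Prdm1 lie lower with conditioned medium in both rows, whereas the brighter Otx2 probe set overlaps between groups as deposited and separates after quantile normalization.

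Otx2, which opens the photoreceptor lineage, was measured by a probe set brighter than 99.6% of all probe sets and by one brighter than 40.6% of them. The brighter one read 12.99 and 12.87 log2 on the EGF arrays against 13.01 and 12.77 log2 on the conditioned-medium arrays as deposited. The groups overlapped, with the highest and the lowest array both from conditioned medium. After quantile normalization it read 13.22 and 12.94 log2 on the EGF arrays against 12.78 and 12.69 log2 on the conditioned-medium arrays, and the groups no longer overlapped. The difference was -0.35 ± 0.09 log2 (SE, limma adjusted p = 0.0306), a 1.27-fold lower level, against -0.04 ± 0.18 log2 as deposited (adjusted p = 0.871) and -0.60 ± 0.14 log2 with median-centred arrays (adjusted p = 0.00717). The call for Otx2 therefore depended on the scaling.

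The dimmer Otx2 probe set read 5.43 and 5.21 log2 on the EGF arrays against 6.04 and 5.48 log2 on the conditioned-medium arrays as deposited, so that every conditioned-medium array lay above both EGF arrays. After quantile normalization it read 5.89, 5.41, 5.51 and 5.29 log2 in the same order and the groups overlapped. Its difference was -0.25 ± 0.26 log2 (SE, limma adjusted p = 0.575), with a 95% interval from -0.83 to 0.33 log2 that includes the value of the brighter probe set. As deposited it was 0.44 ± 0.38 log2 (adjusted p = 0.343). The quantile normalized difference was -0.013 log2 without EGF replicate 1 and -0.49 log2 without EGF replicate 2, so its size hung on a single array and little can be read from its sign. Neither Otx2 probe set passed under all 3 scalings.

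Crx, the homeobox factor downstream of Otx2, read 8.57 and 8.75 log2 on the EGF arrays against 7.99 and 7.89 log2 on the conditioned-medium arrays as deposited. Both conditioned-medium arrays lay below both EGF arrays, although the median of all probe sets was higher in them. After quantile normalization Crx read 8.82 and 8.86 log2 on the EGF arrays against 7.67 and 7.78 log2 on the conditioned-medium arrays. The arrays of a condition lay far closer to each other than to the other condition, and the difference was -1.12 ± 0.10 log2 (SE, limma adjusted p = 7.58e-05; 95% interval -1.34 to -0.89), or 2.17-fold. It was -0.73 ± 0.19 log2 as deposited (1.65-fold, adjusted p = 0.00175) and -1.29 ± 0.12 log2 with median-centred arrays (2.45-fold, adjusted p = 1.19e-05). Only 0.538% of all probe sets had a lower difference than Crx after quantile normalization, and 0.296% did as deposited. With probe sets of the lowest 30% in mean value left out and EGF replicate 2 left out as well, Crx had adjusted p = 0.0578 on the deposited scale, and it passed under all 3 scalings when any of the other 3 arrays was left out in that setting.

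Prdm1, the zinc finger repressor that keeps young cells from the bipolar fate, read 11.72 and 11.99 log2 on the EGF arrays against 11.44 and 11.47 log2 on the conditioned-medium arrays as deposited. The conditioned-medium arrays were the 2 lowest, and the groups did not overlap. After quantile normalization the values were 11.93 and 12.07 log2 against 11.19 and 11.40 log2. The difference was -0.71 ± 0.09 log2 (SE, limma adjusted p = 3.70e-04; 95% interval -0.90 to -0.52), or 1.63-fold, and lay below that of all but 3.80% of probe sets. As deposited it was -0.40 ± 0.17 log2 (1.32-fold, adjusted p = 0.0476), just inside the threshold, and with median-centred arrays -0.97 ± 0.12 log2 (adjusted p = 9.85e-05). With the dim probe sets left out, the deposited adjusted p was 0.0984 without EGF replicate 1, 0.325 without EGF replicate 2, 0.232 without the first conditioned-medium array and 0.100 without the second, so Prdm1 lost the call under all 3 scalings without any 1 of the 4 arrays.

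Neurod1, a basic helix-loop-helix factor of differentiating photoreceptors and amacrine cells, was brighter than 99.8% of probe sets. It read 13.25 and 13.35 log2 on the EGF arrays against 13.24 and 13.05 log2 on the conditioned-medium arrays as deposited. The groups did not overlap, but EGF replicate 1 and conditioned-medium replicate 1 almost coincided. After quantile normalization it read 13.42 and 13.44 log2 against 12.99 and 13.00 log2, with the arrays of a condition much closer to each other than to the other condition. The difference was -0.44 ± 0.07 log2 (SE, limma adjusted p = 0.00221), or 1.35-fold, against -0.16 ± 0.19 log2 as deposited (adjusted p = 0.493) and -0.73 ± 0.13 log2 with median-centred arrays (adjusted p = 0.00155). Its call therefore depended on the scaling in the same way as that of the brighter Otx2 probe set.

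Rorb, the orphan nuclear receptor that acts early in rod formation and is also present in progenitors and other retinal neurons, was not lower by the test under any scaling. Its brighter probe set read 9.42 and 9.59 log2 on the EGF arrays against 10.14 and 9.96 log2 on the conditioned-medium arrays as deposited, with every conditioned-medium array above both EGF arrays. After quantile normalization the values were 9.66 and 9.68 log2 against 9.88 and 9.89 log2, still without overlap. The difference was 0.22 ± 0.07 log2 (SE, limma adjusted p = 0.0762; 95% interval 0.05 to 0.38). It was 0.54 ± 0.16 log2 as deposited (adjusted p = 0.00574), which is near the 0.48 log2 by which the median probe set differed on that scale, and -0.02 ± 0.09 log2 with median-centred arrays (adjusted p = 0.887).

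The dimmer Rorb probe set read 8.87 and 8.63 log2 on the EGF arrays against 9.17 and 9.16 log2 on the conditioned-medium arrays as deposited, and 9.11, 8.73, 8.90 and 9.09 log2 after quantile normalization. The groups overlapped on the second scale and not on the first. Its difference was 0.07 ± 0.12 log2 (SE, limma adjusted p = 0.754), with a 95% interval from -0.20 to 0.35 log2. Under quantile normalization the intervals of both Rorb probe sets lay wholly above that of Crx, and the sign of each Rorb difference turned with median-centred arrays.

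**Figure D2:**
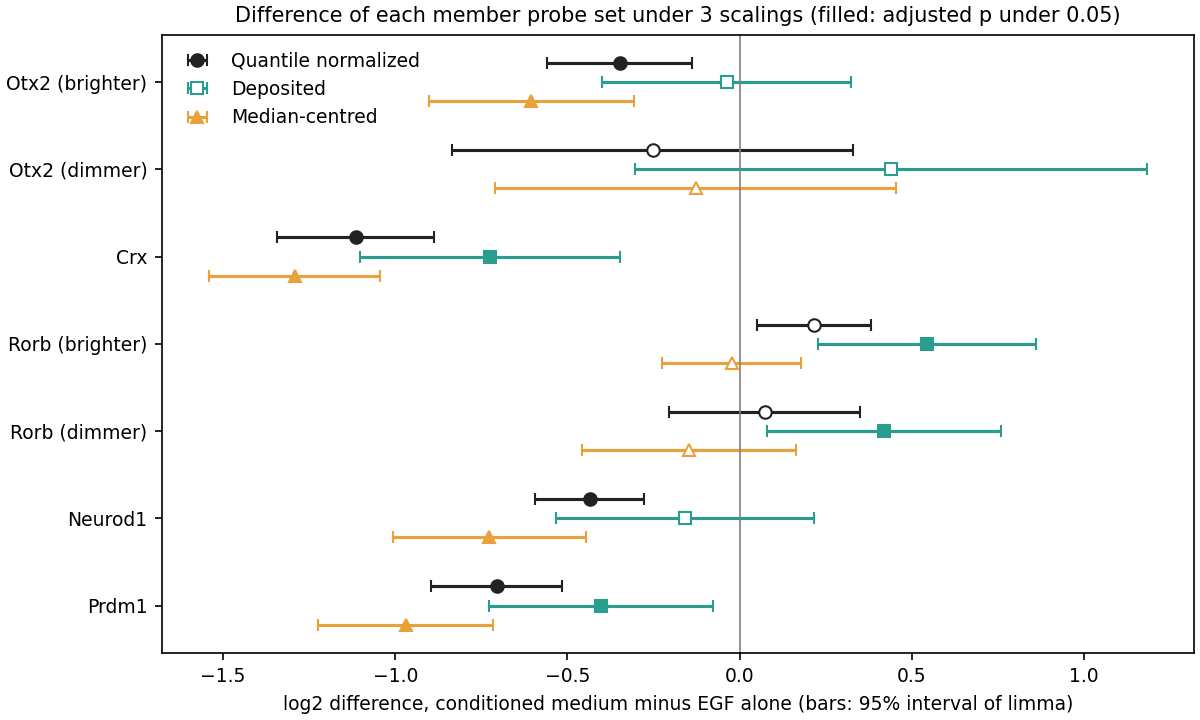
Log2 difference (conditioned medium minus EGF alone) of each member probe set under quantile normalization (circles), as deposited (squares) and with median-centred arrays (triangles), with limma's 95% intervals; filled symbols have an adjusted p under 0.05. Crx and Prdm1 are filled and left of 0 on all 3 scales, while Rorb is filled on the deposited scale alone.

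Groups did not overlap for 5 of the 7 probe sets after quantile normalization, with 4 lower and 1 higher. In all probe sets the groups did not overlap in 29.4% (lower) and 27% (higher) of cases, the shares against which the members' counts are read. As deposited they did not overlap for 3 lower and 3 higher members, against 3.5% and 69.4% of all probe sets.

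Because adding a constant to an array cancels in the difference between 2 genes on that array, pairs of members were also compared within arrays, each gene by its brighter probe set. Of 7 pairs chosen, 4 had both genes measured. The level difference itself has no meaning between different probe sets, and only its shift between conditions is read here. Crx minus Otx2 was -4.42 and -4.11 log2 on the EGF arrays against -5.02 and -4.89 log2 on the conditioned-medium arrays as deposited, a shift of -0.69 log2. Crx therefore lay lower against Otx2 on both conditioned-medium arrays than on either EGF array. Rorb minus Crx was 0.85 and 0.83 log2 on the EGF arrays against 2.15 and 2.07 log2 on the conditioned-medium arrays, a shift of 1.27 log2, the largest of the 4 pairs, and the arrays of a condition lay close together. Prdm1 minus Otx2 shifted by -0.36 log2, from -1.27 and -0.88 log2 to -1.58 and -1.30 log2, with only a narrow gap between the groups. That shift rested on single arrays: on the quantile normalized scale it was -0.36 log2 with all arrays, -0.15 log2 without EGF replicate 2, -0.21 log2 without conditioned-medium replicate 1 and -0.56 log2 without EGF replicate 1. Prdm1 minus Crx shifted by 0.32 log2, from 3.15 and 3.23 log2 to 3.45 and 3.58 log2. In all 4 pairs the groups did not overlap, and the exact permutation test gave a two-sided p = 0.333, the smallest that 2 arrays against 2 allow. The share of all gene pairs without overlap was not computed. Every pair but Prdm1 minus Otx2 contains Crx, so the pairs are not independent and their count is not read as a result. The shifts of Crx against Otx2 and of Rorb and Prdm1 against Crx describe these 4 arrays and do not show that any gene stayed constant. A difference between arrays that varies with signal level does not cancel within an array. After quantile normalization Crx minus Otx2 shifted by -0.77 log2, Rorb minus Crx by 1.33 log2 and Prdm1 minus Crx by 0.41 log2.

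**Figure D3:**
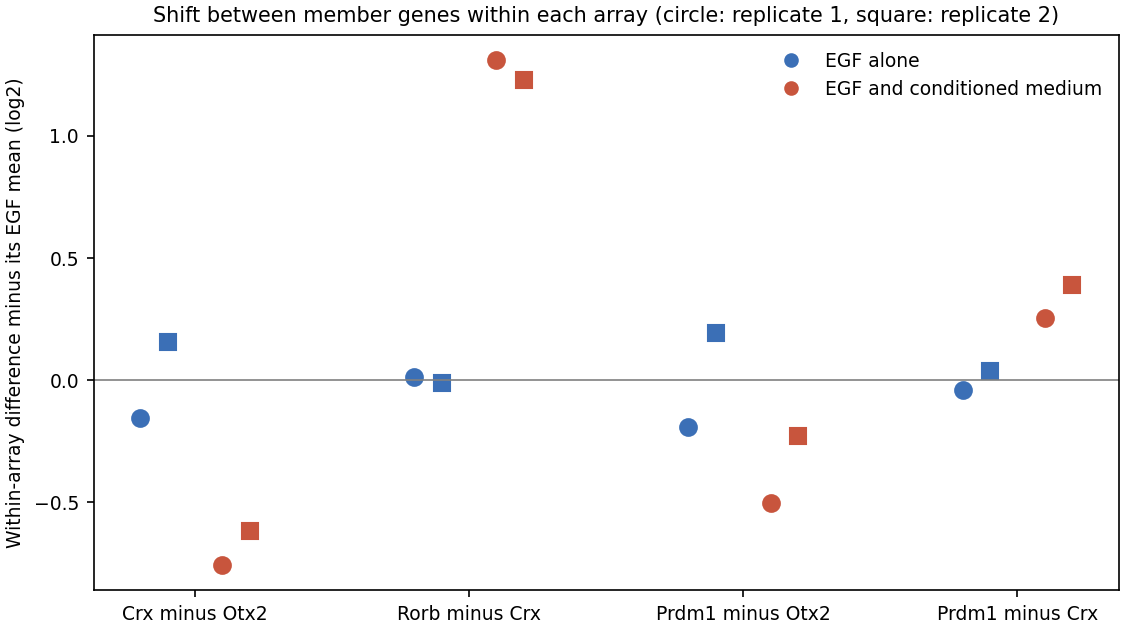
Within-array difference between the brighter probe sets of 2 member genes, as deposited in log2 and drawn relative to its mean over the EGF arrays, for the 4 arrays (blue EGF alone, red EGF plus conditioned medium; circles replicate 1, squares replicate 2). Rorb minus Crx shifts by 1.27 log2 and Crx minus Otx2 by -0.69 log2, each without overlap of the groups.

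The genes with the closest profile to each member were sought among 14212 other genes by the root mean square distance of quantile normalized values, centred on their own mean, over the 4 arrays. They were Acadm for Rorb (0.0039 log2), Dcaf11 for Neurod1 (0.0064 log2), Fam89a for Prdm1 (0.0079 log2), Cd96 for Otx2 (0.015 log2) and LOC102550246 for Crx (0.016 log2). Cd96 and LOC102550246 lay under the limit for dim probe sets (the lowest 30% in mean value). Among 14212 genes a close match over 4 arrays can arise without any link between genes. The distances are therefore not read as shared regulation.

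Many genes that encode the proteins of rods and cones are known targets of Crx, Otx2 and Neurod1. The photoreceptor list was chosen by the protein encoded, and not every gene in it is a known target. Of 43 genes of this list measured (each by its brightest probe set), 17 fell and 0 rose under all 3 scalings, against 1.35% and 6.59% of all 14217 genes. The other 26 did neither, and 7 of the 43 lay under the limit for dim probe sets. The genes named below had the smallest p of the list. After quantile normalization alone 24 were lower and 0 higher, against 9.78% and 11.4%. Their median difference was -0.78 log2 after quantile normalization, against 0.01 log2 for all genes, and -0.27 against 0.44 log2 as deposited. Opn1sw (-2.41 ± 0.09 log2, SE), the phototransduction regulator Pdc (-2.07 ± 0.08), the photoreceptor cadherin Cdhr1 (-1.68 ± 0.07), the rod arrestin Sag (-1.43 ± 0.08) and the disc protein Prph2 (-1.29 ± 0.08) fell, with estimates below that of Crx, although this difference from Crx was not tested. Falls about as large as that of Crx were seen in Aipl1, a chaperone of the phosphodiesterase (-1.22 ± 0.07 log2, SE), in Pde6g, the inhibitory subunit of the rod phosphodiesterase (-1.18 ± 0.07), and in Gngt2, the gamma subunit of cone transducin (-1.17 ± 0.07). The list was chosen with results of these arrays known, and its count is no independent support for the fall of Crx.

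**Figure D4:**
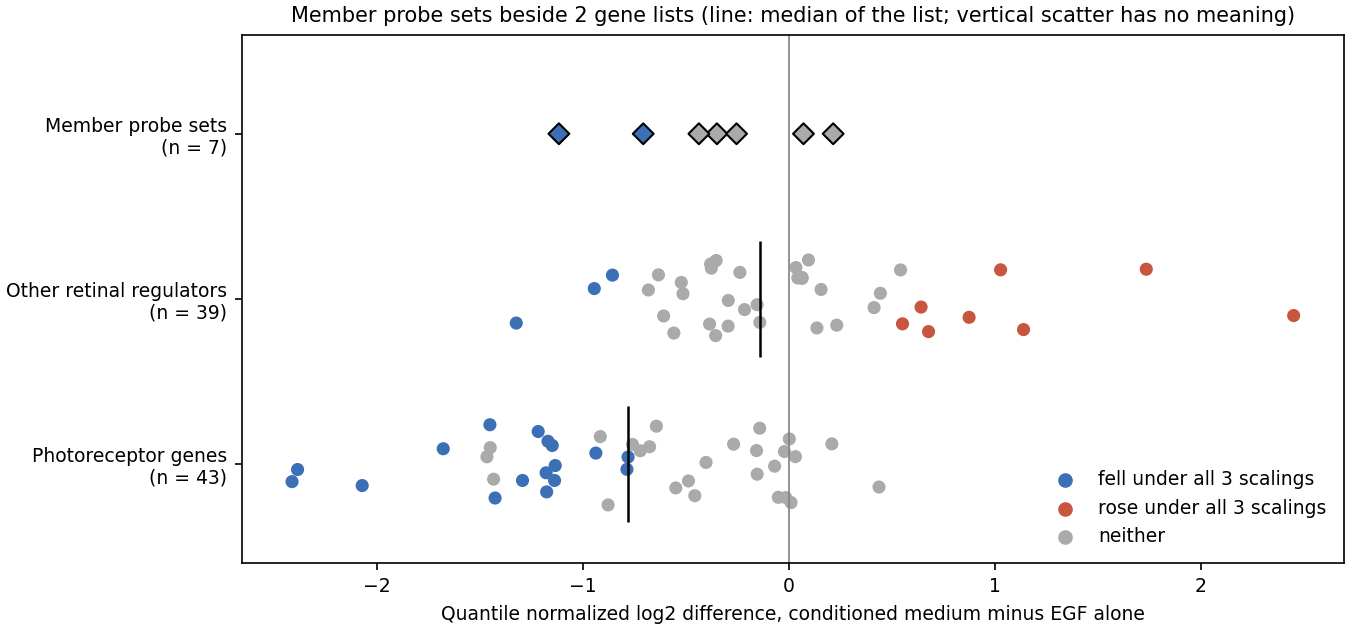
Quantile normalized log2 difference (conditioned medium minus EGF alone) of the 7 member probe sets (diamonds) beside 39 other retinal regulators and 43 photoreceptor genes (points, with the list median as a line); blue fell and red rose under all 3 scalings, grey did neither. The photoreceptor genes centre at -0.78 log2 and the regulators at -0.14 log2, and among the members only Crx and Prdm1 are coloured.

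Among 39 other regulators of retinal cell fate 3 fell and 8 rose under all 3 scalings, against 1.35% and 6.59% of all 14217 genes. After quantile normalization alone 9 were lower and 11 higher, against 9.78% and 11.4%, with a median of -0.14 log2. The 3 that fell were Rxrg, a retinoid receptor of cones (-1.32 ± 0.12 log2, SE, limma adjusted p = 6.37e-05), Pias3, a SUMO ligase that works with Crx and Nr2e3 in rods (-0.94 ± 0.07), and Bhlhe22, a factor of amacrine and bipolar cells (-0.86 ± 0.15), which was chosen after its values were seen. With the dim probe sets left out, Rxrg kept its call without any 1 array, Pias3 lost it without EGF replicate 2, and Bhlhe22 kept it only without conditioned-medium replicate 1. Thrb, the thyroid hormone receptor of green cones, behaved like Neurod1 and Otx2 in that it was lower after quantile normalization (-0.38 ± 0.09 log2, adjusted p = 0.0182) but not as deposited (adjusted p = 0.789). The same held for Samd11, a repressor in rods (-0.68 ± 0.09 log2, with deposited adjusted p = 0.105). Id3 (2.45 ± 0.09 log2), Id1 (1.74 ± 0.10) and Id2 (1.14 ± 0.10), which bind the E-protein partners of Neurod1 and other helix-loop-helix factors, rose, as did Sox11 of immature neurons (0.88 ± 0.09) and the eye-field factor Six6 (0.68 ± 0.09). With the dim probe sets left out, Sox11 and the Id genes kept their calls without any 1 array, and Six6 lost its call when EGF replicate 2 or conditioned-medium replicate 1 was dropped. Mef2d, a partner of Crx at photoreceptor genes (-0.29 ± 0.11 log2), Rax (-0.24 ± 0.07), Pax6 (-0.15 ± 0.08) and Notch1 (0.23 ± 0.08) did not pass under all 3 scalings.

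Several of the members are made by other cells as well: Prdm1 by leukocytes, Otx2 by pigment epithelium and bipolar cells, and Neurod1 and Rorb by amacrine cells. The marker counts below are read against all 14217 genes. Of these 1.35% fell and 6.59% rose under all 3 scalings, and 9.78% were lower and 11.4% higher after quantile normalization. Beside the fall of Prdm1, 9 of 13 microglia and leukocyte markers rose and 0 fell, and their summed linear signal after quantile normalization was 797 and 882 with EGF alone and 1643 and 1690.0 with conditioned medium, with Itgam and C1qb under the dim limit. Beside the Otx2 values, 1 of 10 pigment epithelium markers rose and 0 fell under all 3 scalings. After quantile normalization, the scale on which Otx2 was called, 2 (Dct and Rlbp1) were lower. The summed signal was 1853 and 1929 against 1291 and 1316, and most of it came from Rlbp1 alone (means 10.34 and 9.63 log2). The defining markers Rpe65, Tyr, Tyrp1 and Lrat lay under the limit for dim probe sets. The sum therefore mainly follows Rlbp1 and is not read as an amount of pigment epithelium. Of 7 bipolar markers 1 fell and 0 rose, and 2 were lower after quantile normalization (822 and 784 against 460 and 468), with Prdm8 and Gng13 under that limit. Beside Neurod1 and Rorb, Gad1 and Calb2 fell among 11 markers of amacrine and horizontal cells, none of which rose, and 6 of the 11 were lower after quantile normalization, the scale on which Neurod1 was called (12029.6 and 12079.6 against 8443 and 8411). Mesenchymal markers rose in 5 of 12 (906 and 781 against 2326 and 2386, with Lum, Dcn and Thy1 under the limit) and lens markers in 2 of 10 (351 and 341 against 646 and 662, with 5 under the limit), and 0 of 9 endothelial markers passed under all 3 scalings (4310.2 and 4480.3 against 5823 and 5741), with Pecam1, Tek, Tie1 and Emcn under the limit. Among these 9, Kdr, a receptor of vascular endothelial growth factor, was higher after quantile normalization (0.41 ± 0.07 log2, SE, limma adjusted p = 0.00286) and as deposited (adjusted p = 5.83e-04) but not with median-centred arrays (adjusted p = 0.386). Most of the endothelial sum came from Kdr alone, with quantile normalized means of 11.99 log2 with EGF alone and 12.40 log2 with conditioned medium. The part of these cells in the member values was not tested.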

How the data were processed

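Expression was measured on 4 arrays, 2 per condition. Per the labels and the series text, the authors summarised the arrays by RMA in GenePattern and deposited log2 values; version and options are not given in the sources used here. Genes were named through the platform annotation (20832 probe sets with 1 symbol, 436 with several, 9831 without). The 57 array controls were left out of the tests and no filter on low values was used. Values were quantile normalized and compared with limma 3.58.1 in R 4.3.3 (lmFit and eBayes, prior variance following mean intensity; no block). Tests were two-sided, and a call needed a Benjamini-Hochberg adjusted p under 0.05. On deposited values limma's prior degrees of freedom were infinite, so each spread came from the trend alone. Precision is set by having 4 arrays. The procedure was tested on simulated data.

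Same-numbered arrays did not deviate together from their group means (correlation across probe sets -0.02 after quantile normalization and -0.09 as deposited), and no label ties the numbers to embryo pools. The deposited and median-centred scales, a filter on the lowest 30% of mean values (under 4.77 log2, called dim), the brightest probe set per gene, no trend, the replicate block and leaving out each array were alternatives. Members and lists were chosen with earlier results of these data known. Named genes were every member probe set, up to 8 per list with the smallest p, and Thrb, Rxrg, Mef2d, Pax6, Rax and Notch1 in any case, plus the closest profile to each member. Bhlhe22 and the cell type markers named singly (those under the dim limit, Gad1, Calb2, Dct, Rlbp1 and Kdr) fall outside this rule and were chosen after their values were seen, as were the relatives in the closing section; a further item of this rule is not reported here.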

Additional observations from a re-analysis of the deposited data

How the results depend on the processing

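As deposited, 307 probe sets were lower and 9688 higher, with median-centred arrays 5213 were lower, and under all 3 scalings 306 were lower and 1527 higher, against 2535 and 2544 after quantile normalization. Member probe sets past the threshold numbered 4 lower and 0 higher, but 2 lower and 2 higher as deposited and 2 lower under all 3 scalings. As deposited the brighter Otx2 probe set (-0.038 log2) and Neurod1 (-0.16 log2) lost the call, the dimmer Otx2 probe set turned to 0.44 log2, and Rorb gained it (0.54 and 0.42 log2). With median-centred arrays both Rorb differences turned (-0.023 and -0.15 log2). The within-array shift of Rorb minus Crx was 1.27 log2 and of Prdm1 minus Crx 0.32 log2 on the deposited and the median-centred scale, against 1.33 and 0.41 log2 after quantile normalization. As deposited 2 photoreceptor genes were higher, and 3 other regulators were lower (14 with median-centred arrays, 3 under all 3 scalings, against 9).

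Without the intensity trend 558 probe sets were lower and 697 higher, and of the members only Crx was called (1 lower); the calls for Otx2 (-0.35 log2), Neurod1 (-0.44 log2) and Prdm1 (-0.71 log2) were lost, and 2 of the other regulators were lower and 5 higher. With the brightest probe set per gene 1606 were lower, since fewer were tested.

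With the replicate number as a block, the quantile normalized calls of the 7 member probe sets were unchanged (4 lower, 0 higher). Under all 3 scalings the block left 45 lower probe sets, 0 members (deposited adjusted p = 0.0961 for Crx and 0.333 for Prdm1), and 1 other regulator that fell; these numbers share no known pool.

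With any 1 array left out and no filter, limma called 0 probe sets after quantile normalization, with 1 residual degree of freedom (at an unadjusted p under 0.05, 2954 to 3653 were lower and 2737 to 3644 higher, and 3 to 4 members were lower). A filter on dim probe sets, added after seeing this, gave 660 to 1110 lower (928 without EGF replicate 2) and 646 to 1520 higher (1216 without EGF replicate 2, but 658 without conditioned-medium replicate 1). Over both settings the range of lower calls was therefore 0 to 1110 for all probe sets, 0 to 4 for the members, 0 to 21 for photoreceptor genes and 0 to 6 for other regulators, and of higher calls 0 to 1520 for all probe sets and 0 to 8 for other regulators. The differences themselves ranged from -1.17 to -1.06 log2 for Crx, -0.81 to -0.61 for Prdm1, -0.45 to -0.43 for Neurod1 and -0.49 to -0.21 for the brighter Otx2 probe set (-0.40 and -0.30 without conditioned-medium replicate 1 and 2), -0.49 to -0.013 for the dimmer one, and the dimmer Rorb probe set went from -0.11 to 0.26 log2, turning when EGF replicate 2 (-0.11 log2) or conditioned-medium replicate 2 (-0.020 log2) was left out. Under all 3 scalings, filtered, the range was 76 to 152 lower probe sets (121 without EGF replicate 1, 85 without conditioned-medium replicate 2) and 530 to 1254 higher ones (903 without EGF replicate 2, 606 without conditioned-medium replicate 1), 0 to 1 members that fell and 1 to 3 other regulators that fell. Where no cause is named above, the cause was not tested.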

Other observations

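Relatives of the members, chosen by symbol after the annotation was seen, were read by their brightest probe sets. Of 12 such genes of the Otx, Neurod, Ror and Prdm families 0 rose and 0 fell under all 3 scalings (limma), against 6.59% and 1.35% of all genes. After quantile normalization 2 were lower and 0 higher, against 9.78% and 11.4%. Rora, a nuclear receptor related to Rorb, was lower by -0.67 ± 0.15 log2 (SE, adjusted p = 0.0139), with -0.22 log2 as deposited and -0.78 log2 with median-centred arrays, whereas Rorb itself differed by 0.22 and 0.07 log2 on the quantile normalized scale. Prdm2, a histone methyltransferase of the Prdm family, was lower by -0.43 ± 0.12 log2 (adjusted p = 0.0299). Its difference was -0.04 log2 as deposited and -0.61 log2 with median-centred arrays. Otx1, the forebrain relative of Otx2, was under the limit for dim probe sets and differed by -0.04 ± 0.24 log2. Neurod2, a factor of maturing neurons, differed by -0.38 ± 0.18 log2 (adjusted p = 0.197).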
